A study of Homo sapiens with 4 samples.

Results

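Open chromatin was compared at 10 genes of the amino acid response: ATF4 itself and 9 genes that it is known to drive in serine and glycine synthesis, mitochondrial folate metabolism, asparagine synthesis, cystine uptake and the restraint of mTORC1. A peak belonged to one of these genes if the authors' nearest-gene column named the gene or if its centre was at most 50 kb from one of the gene's transcription start sites (TSS). The 10 genes are among 15846 genes with a usable TSS. In shControl cells they held 44 of 52192 peaks of the DMSO list and 45 of 49783 of the rapamycin list. In shARID1A cells they held 50 of 45700 and 45 of 44760. The assay was ATAC-seq, in which a transposase cuts and tags accessible DNA. The cells were Huh7, an established human liver cancer line, and every library was made from 50000 cells. shControl cells carried a control short hairpin RNA, and shARID1A cells carried one against ARID1A, the DNA-binding subunit of the BAF chromatin remodeller. Cells of each kind were given DMSO, the solvent, or 100 nM rapamycin, an inhibitor of mTORC1, for 6 h. Whether the cells were clonal, how many hairpins were used and how much ARID1A protein was left are not stated in the labels.

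ATF4 is a bZIP transcription factor whose protein is made when eIF2 is phosphorylated in amino acid shortage or endoplasmic reticulum stress, and also when mTORC1 is active. It pairs with C/EBP family factors on composite C/EBP-ATF elements near genes that make, import and charge amino acids. PHGDH, PSAT1 and PSPH catalyse the successive steps from a glycolytic intermediate to serine, and SHMT2 and MTHFD2 pass the carbon of serine into the mitochondrial folate pool, with glycine made on the way.

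The RefSeq promoter table (GRCh38.p14, 250 bases before to 50 after a TSS) held 7 of the 10 genes. The core of the C/EBP-ATF element, TGATGNAA, was searched on both strands and was found at 2 of these genes, ASNS and SLC3A2, and at 3.60% of the 15843 genes in the table. SLC3A2 has 3 promoters there, of which 1 held it. Both promoters are printed with the match in capitals, since these are the letters ATF4 complexes are known to bind, and both matches lay under a peak in all 4 lists. The ASNS match is at chromosome 7, 97872469 to 97872476, at position -68 from the TSS. The SLC3A2 match reads TTACATCA on the printed strand, being the core on the opposite strand, and lies at chromosome 11, 62881736 to 62881743, 37 bases after the internal TSS. PSAT1 is shown as the gene whose promoter peak ranked lower in each of the 4 comparisons. It had no match to the core in this window, and its capitals mark 3 CCAAT boxes, the letters that NF-Y binds, at positions -113, -83 and -52 from the TSS. All 3 boxes lay under the PSAT1 peak in all 4 lists.
ASNS (chr7:97872359-97872658, minus strand): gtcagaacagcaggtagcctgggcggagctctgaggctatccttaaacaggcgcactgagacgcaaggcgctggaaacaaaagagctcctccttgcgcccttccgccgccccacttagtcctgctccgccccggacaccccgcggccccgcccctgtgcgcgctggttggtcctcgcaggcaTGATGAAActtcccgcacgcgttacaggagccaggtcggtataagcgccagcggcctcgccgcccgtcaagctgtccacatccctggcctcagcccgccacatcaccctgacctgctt
SLC3A2 (chr11:62881449-62881748, plus strand): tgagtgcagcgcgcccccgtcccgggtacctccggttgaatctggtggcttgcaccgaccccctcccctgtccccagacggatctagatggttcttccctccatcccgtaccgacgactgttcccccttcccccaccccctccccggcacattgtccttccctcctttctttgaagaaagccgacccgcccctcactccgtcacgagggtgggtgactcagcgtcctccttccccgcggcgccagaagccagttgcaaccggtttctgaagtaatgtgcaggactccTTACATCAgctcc
PSAT1 (chr9:78296875-78297174, plus strand): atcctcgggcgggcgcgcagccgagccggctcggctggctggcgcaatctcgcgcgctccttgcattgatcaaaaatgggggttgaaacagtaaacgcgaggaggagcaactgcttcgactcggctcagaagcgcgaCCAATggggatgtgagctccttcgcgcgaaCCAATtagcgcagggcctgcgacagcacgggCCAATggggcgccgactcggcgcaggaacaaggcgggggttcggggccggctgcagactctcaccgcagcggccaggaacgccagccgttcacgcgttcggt

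CCAAT was found in the promoters of 5 of the 7 genes, which were DDIT4, PHGDH, PSAT1, MTHFD2 and SLC3A2, and in those of 42.1% of all genes in the table. The E-box CACGTG, bound by MYC and by TFEB and its relatives, was found in ATF4 and in 10.9% of genes. The antioxidant response element core TGACNNNGC was found in MTHFD2 and SLC3A2 and in 17.9% of genes. The AP-1 site TGANTCA was found in SLC3A2 and in 8.04% of genes, and there it overlapped the antioxidant match. The cyclic AMP response element TGACGTCA was in none of the 7 genes and in 3.0% of all genes. These matches are descriptions of the letters in the windows.

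Each group held 1 library, so no difference had a replicate check and no test was made. Peaks were ranked by the deposited score within a list, rank 1 being the highest score, and the percent rank is the rank as a percentage of the number of peaks listed: a small value is near the top of the list. A ratio of percent ranks above 1 means that a peak stood lower in the second list, and a ratio of 2 or more was the size at which a difference was counted. The lists differ in length and no source used here gives their depth, so a rank gives the place of a peak among the others of its library and not an amount of accessibility. The peak numbers of the shARID1A DMSO list skip 6666 numbers and those of shControl rapamycin 1093, and none were skipped in the other lists. The share of peaks with a tied score was 64.4% to 75.2%. Among marker genes of cell types, a promoter peak was found at 6 of 9 hepatocyte genes, and at 7 in shARID1A rapamycin, with none at ALB or AFP in any list. Of other cell types, 1 or 2 of 5 leukocyte genes, 0 of 2 endothelial genes and 2 or 3 of 4 fibroblast and stellate genes had one. Over all 15846 genes, 10526 to 10686 had one, depending on the list. Hepatocyte genes thus had a promoter peak about as often as genes at large, so their count cannot serve as a check of the cell type.

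All 10 genes had a promoter peak, centred within 1 kb of a TSS, in all 4 lists, as did 10062 of the 15846 genes. None of the 10 was lost or gained with rapamycin in either genotype. Over all genes with a promoter peak, 2.53% lost it and 3.25% gained one with rapamycin in shControl, and 3.21% lost it and 1.94% gained one in shARID1A. The place of these peaks in the lists differed widely, from the top 0.182% for PSPH to 72.9% for PHGDH. Values in sets of 4 are percent ranks, first in shControl cells in DMSO and in rapamycin, then in shARID1A cells in DMSO and in rapamycin.

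**Figure D1:**
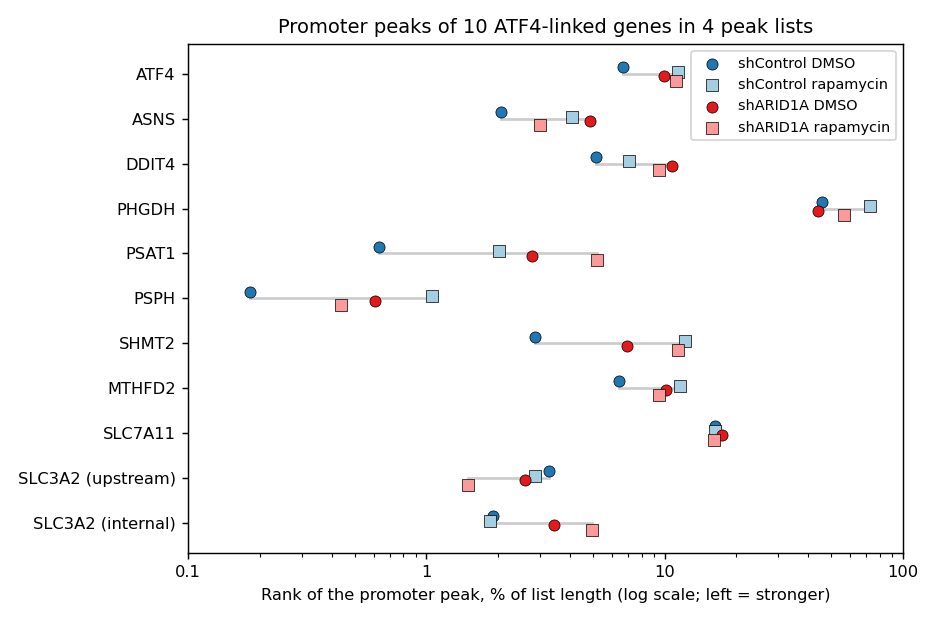
Percent rank of the promoter peak of each gene (horizontal axis, log scale, small values at the top of a list) in each of the 4 lists, 1 point a library. PSPH, PSAT1, SLC3A2 and ASNS stand near the top of every list and PHGDH far below the others, and 7 genes have their best rank in shControl DMSO.

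The promoter peak of ATF4 (chromosome 22, TSS 39520559) stood at 6.70%, 11.4%, 9.95% and 11.2%. The shControl DMSO library thus had it nearest the top, and the other 3 libraries lay close together. Rapamycin against DMSO gave a ratio of 1.70 in shControl and 1.12 in shARID1A. The peak was between 1380 and 1522 bp wide and its centre lay between -242 and -183 bases from the TSS, so its place hardly differed between the lists.

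ASNS, asparagine synthetase (chromosome 7, TSS 97872408 and 97872165 on the minus strand), stood at 2.06%, 4.09%, 4.88% and 2.99%. The peak ranked lower with rapamycin in shControl, by a ratio of 1.99, and higher in shARID1A, by a ratio of 0.61. DDIT4 encodes REDD1, which restrains mTORC1 through TSC2 (chromosome 10, TSS 72273924), and its peak stood at 5.14%, 7.10%, 10.7% and 9.45%. Both shARID1A libraries had DDIT4 lower than both shControl libraries, while the ratios for rapamycin were 1.38 in shControl and 0.88 in shARID1A. How many of all genes rank lower in both shARID1A libraries in this way was not counted.

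In serine synthesis, the promoter peaks of the 3 enzymes lay in very different parts of the lists. PHGDH, the first enzyme (chromosome 1, TSS 119711934), stood at 45.8%, 72.9%, 44.1% and 56.5%. It was lower in rapamycin than in DMSO in both genotypes, with ratios of 1.59 in shControl and 1.28 in shARID1A. Of 10062 genes, 27.8% ranked lower in both. The PHGDH peak was centred 588 to 787 bases inside the gene, in an intron by the deposited annotation of every list. PHGDH was the one member with no peak centred within 500 bp of the TSS.

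PSAT1, the second enzyme (chromosome 9, TSS 78297125), stood at 0.632%, 2.01%, 2.77% and 5.19%. It was rank 330 in shControl DMSO and 1001 in shControl rapamycin, and rank 1265 and 2324 in shARID1A. The ratios for rapamycin were 3.18 and 1.88, and in both genotypes the DMSO library had the peak nearer the top. The peak was 2098, 1499, 1588 and 1949 bp wide in the same order. PSPH, the phosphatase that releases serine (chromosome 7, TSS 56051604 on the minus strand), stood at 0.182%, 1.06%, 0.608% and 0.438%. It was rank 95 in shControl DMSO and rank 526 in shControl rapamycin, a ratio of 5.80, and rank 278 and 196 in shARID1A, a ratio of 0.72. The PSPH peak also covers the start of the divergent gene CCT6A, a chaperonin subunit that the authors name as its nearest gene in 3 of the 4 lists, so its rank cannot be given to either gene alone.

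Of the mitochondrial folate enzymes, SHMT2, which splits serine into glycine and a one-carbon unit (chromosome 12, TSS 57230086), stood at 2.86%, 12.2%, 6.94% and 11.4%. Rapamycin against DMSO gave 4.25 in shControl and 1.64 in shARID1A. The SHMT2 peak thus ranked lower with rapamycin in both genotypes, as did 27.8% of 10062 genes. The start of AC137834.2 lies within 1 kb of the centre of the same peak and is named as nearest in 3 of the 4 lists, so the rank cannot be given to SHMT2 alone. MTHFD2, which oxidises that unit (chromosome 2, TSS 74198615), stood at 6.46%, 11.6%, 10.2% and 9.48%. The shControl DMSO library again stood apart from the other 3, and the ratios were 1.80 and 0.93. The deposited annotation places the same peak at the promoter of the noncoding gene AC073263.2.

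The transporter subunits differed least with treatment in shControl. SLC7A11, the cystine and glutamate exchanger (chromosome 4, TSS 138242349 on the minus strand), stood at 16.3%, 16.3%, 17.4% and 16.1%. Its ratios for rapamycin were 1.0 and 0.92, and over the 4 comparisons they lay between 0.92 and 1.07. SLC3A2, the heavy chain that carries SLC7A11 and other light chains to the membrane, has an upstream promoter (chromosome 11, TSS 62856109, shared with the noncoding gene SNHG1) and an internal one (TSS 62880896 and 62881699). The upstream peak stood at 3.27%, 2.86%, 2.59% and 1.49%, and the internal peak, which holds the core printed above, at 1.91%, 1.84%, 3.45% and 4.97%. The upstream peak was thus nearer the top than the internal one in both shARID1A libraries and further down in both shControl libraries. Taking the better of the peaks in each list, the ratios for rapamycin were 0.97 and 0.58. The better peak was the internal one in shControl and the upstream one in shARID1A, where the internal peak ranked lower with rapamycin.

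With rapamycin in shControl, 8 of the 10 promoter peaks ranked lower and 2 higher, with a median log2 ratio of 0.81 against 0.02 over 10260 genes, 51.5% of which ranked lower. PSAT1, PSPH and SHMT2 ranked lower by 2 times or more, 3 of 10 (exact 95% interval 6.67% to 65.2%), against 5.41% of genes, and none ranked higher by as much, against 4.38% of genes. A promoter near the top of a list has more room to rank lower, so the same was counted among promoters in the top 10% of either list. There it was 3 of 8 (8.52% to 75.5%), an interval that holds the 11.2% of genes, and 0 of 8 ranked higher by as much, against 8.5%. A promoter in the top 10% of a single list ranks lower in the other list by construction. ATF4, SHMT2 and MTHFD2 entered through shControl DMSO alone, so these counts cannot by themselves show a fall in rank. Intervals cover counting error over genes only.

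With rapamycin in shARID1A, 4 of the 10 ranked lower and 6 higher, with a median log2 ratio of -0.11 against 0.03 over 10343 genes, 52.7% of which ranked lower. None reached a ratio of 2 in either direction, against 3.45% of genes lower and 2.53% higher. Among promoters in the top 10% it was 0 of 8 in both directions, against 7.41% and 5.6%. If the skipped numbers are counted as weaker peaks of their list, every ratio in shARID1A moves by 0.20 on the log2 scale towards a lower rank. Then 7 of the 10 ranked lower, PSAT1 by over 2 times, and 69.8% of all genes ranked lower, so the number of lower-ranked members in shARID1A depends on what the skipped numbers stand for. ATF4, PHGDH, PSAT1 and SHMT2 ranked lower in both genotypes, 4 of 10, against 27.8% of 10062 genes. The difference between the genotypes was not tested.

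**Figure D2:**
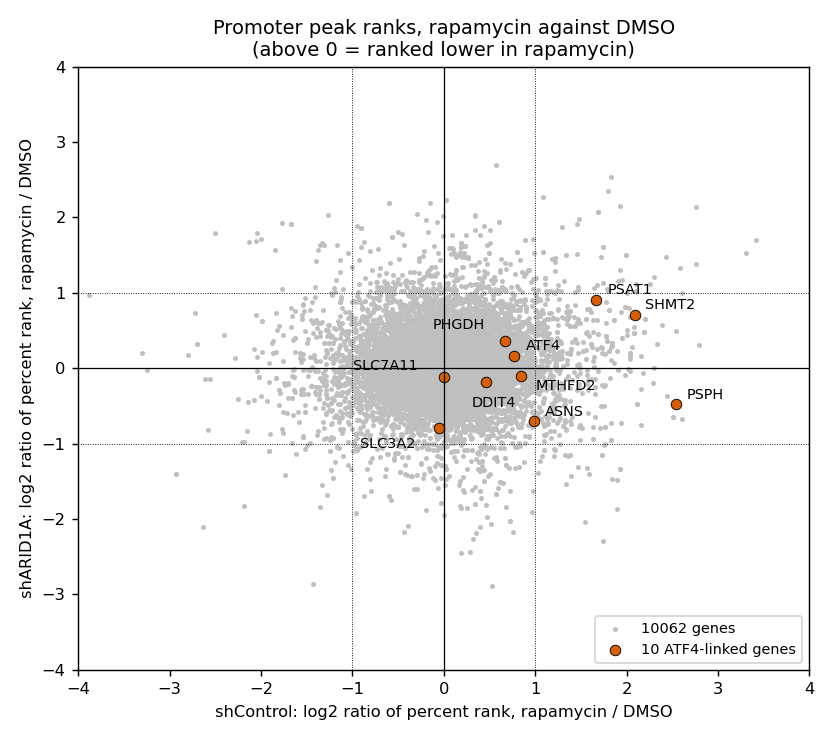
Log2 ratio of the percent rank of the promoter peak, rapamycin against DMSO, in shControl (horizontal axis) and shARID1A (vertical axis), with the 10 members named and all 10062 genes in grey; above 0 means ranked lower in rapamycin. The members lie mostly to the right of 0, with PSPH furthest at 2.54, and on both sides of 0 in shARID1A, between -0.79 and 0.91.

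Knockdown was compared with control within each treatment. In DMSO, 9 of the 10 promoter peaks ranked lower in shARID1A and 1 higher, with a median log2 ratio of 0.86 against -0.01 over 10281 genes, 49.6% of which ranked lower. Among genes in the top 10% of either list the median was 0.14 and 57.3% ranked lower. SLC3A2 is among the 9 by the better of its peaks in each list, and with the peak nearest a TSS 8 ranked lower. In both treatments its upstream peak ranked higher with knockdown and its internal peak lower. ASNS, DDIT4, PSAT1, PSPH and SHMT2 ranked lower by 2 times or more, 5 of 10 (18.7% to 81.3%) against 4.45% of genes, and none ranked higher by as much, against 3.1%. DDIT4 missed this size under 2 of 3 other rankings, which leaves 4 of 10. Among promoters in the top 10% it was 5 of 8 (24.5% to 91.5%) lower, against 9.4% of genes, and 0 of 8 higher, against 5.66%. DDIT4 and MTHFD2 entered this set through shControl DMSO alone, and so ranked lower in shARID1A by construction. This count therefore cannot by itself show a fall in rank. The largest ratios were 4.38 for PSAT1, 3.34 for PSPH, 2.43 for SHMT2 and 2.37 for ASNS. In rapamycin, 2 ranked lower in shARID1A and 8 higher, with a median log2 ratio of -0.20 against 0.02 over 10285 genes, 51.7% of which ranked lower. PSAT1 ranked lower by a ratio of 2.58, 1 of 10 against 5.75% of genes, and PSPH higher by a ratio of 0.41, 1 of 10 against 4.05%. Among promoters in the top 10% it was 1 of 6 in each direction, against 12.2% lower and 7.91% higher. These comparisons share libraries with those above, the shControl DMSO library standing in both sets in which most members ranked lower. ATF4, ASNS, DDIT4, PSAT1, PSPH, SHMT2 and MTHFD2 had their best percent rank in shControl DMSO, 7 of 10 (34.8% to 93.3%), against 27.4% of all genes, and 7 of 8 in the top 10% of any list against 30.7% of such genes. This last count was chosen after the values were seen. PSAT1 was the one member that ranked lower in all 4 comparisons. With skipped numbers counted, ATF4 and DDIT4 did so too, with their smallest log2 ratios at 0.01 for ATF4 and 0.02 for DDIT4.

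Beyond the promoters, the neighbourhoods held 25, 26, 28 and 25 distal peaks and 8, 8, 11 and 9 peaks at the promoters of neighbouring genes. The latter include peaks over 1 kb from a TSS whose region, merged over the lists, holds a nearer peak, as at NXPH4 near SHMT2. The number of peaks within 50 kb had a median of 4.5, 4, 3.5 and 3.5 over the 10 genes, against 3 over all genes in every list. Merged over the lists, the peaks formed 59 regions. All 11 promoter regions and 18 of 38 distal regions were in every list, and 12 distal regions were in 1 list only. Over the whole lists, promoter and distal regions together, 31585 of 69838 regions were in every list. The shares for promoter and distal regions apart, and for regions in 1 list only, were not counted over all regions. Whether the members' regions differ from others in this was thus not shown. SLC3A2 had the most peaks in every list, 10, 9, 10 and 9, while MTHFD2 and SLC7A11 had 2 in every list.

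**Figure D3:**
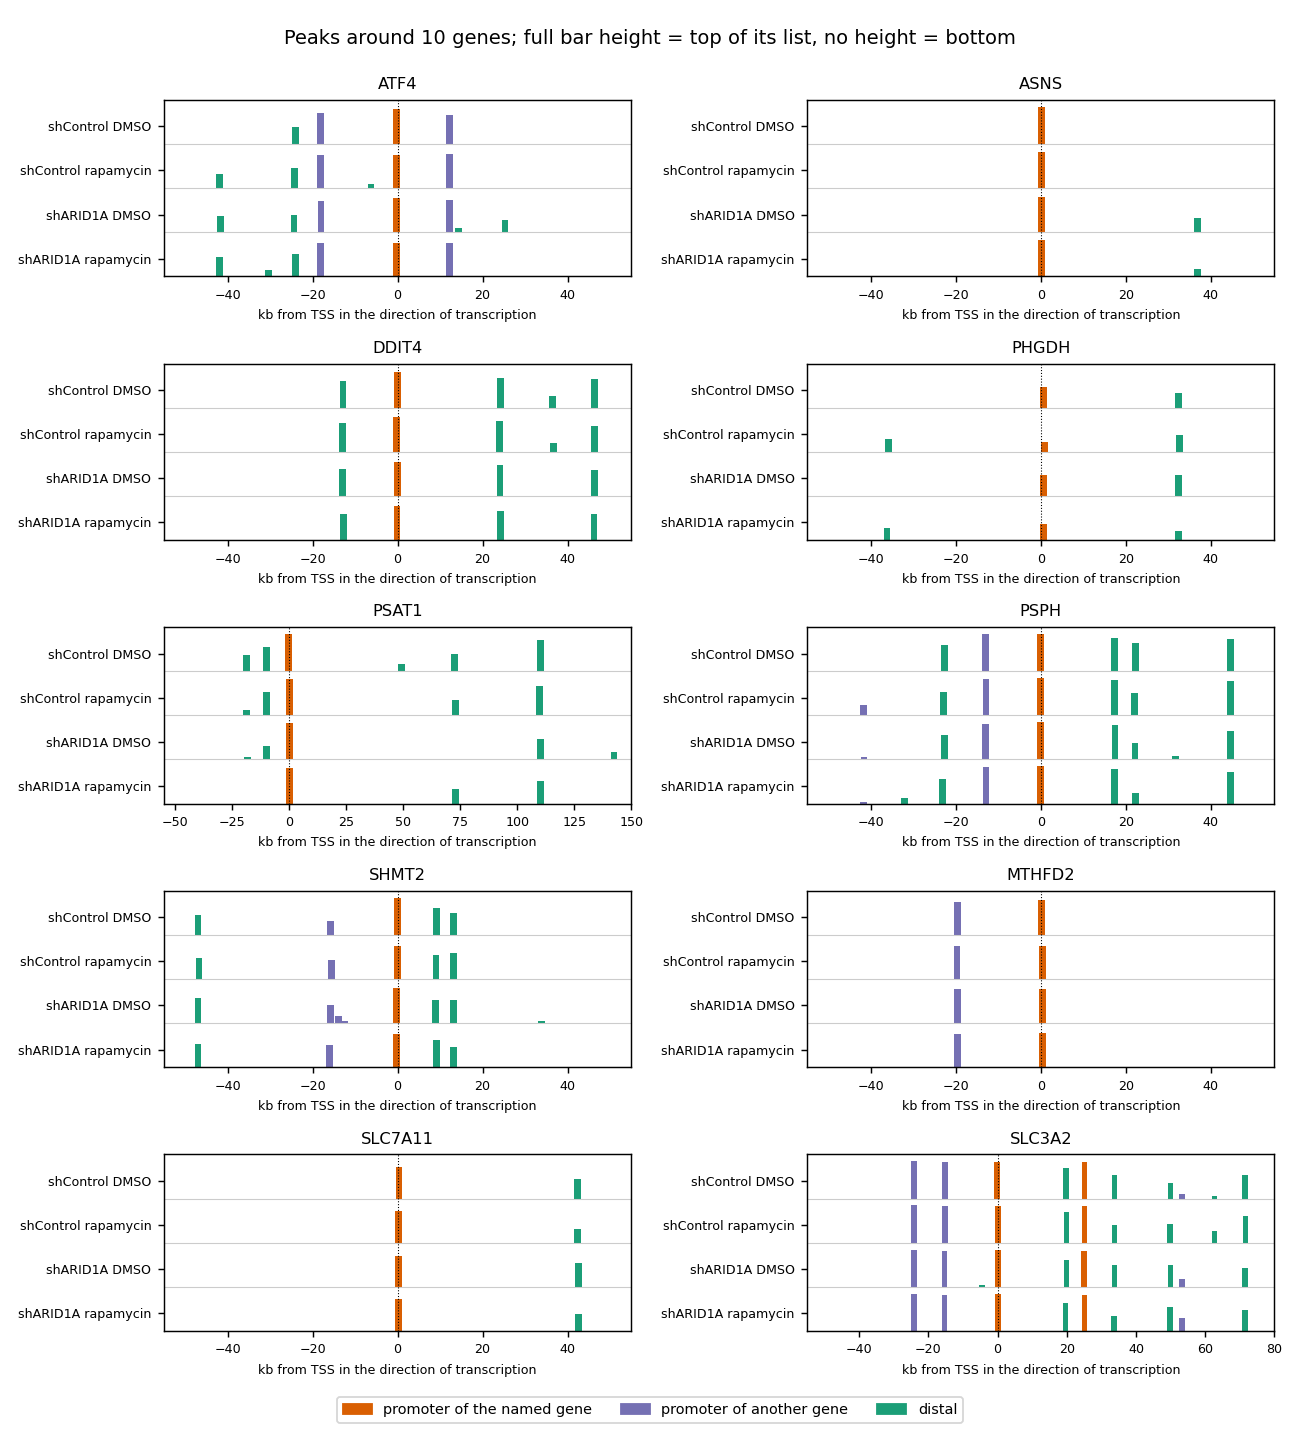
Peaks of each gene by distance of their centre from the TSS (horizontal axis, kb), 1 row a library, with bar height falling from the top of the list to its end, so that the lowest-ranked peaks are barely visible. Promoter peaks are present in all 4 rows of every gene, while PSAT1 goes from 7 peaks in shControl DMSO to 3 in shARID1A rapamycin.

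Of the distal peaks, 2 of 25 were lost with rapamycin in shControl (8%, exact 95% interval 0.984% to 26%) against 28.1% of all distal peaks, and 3 of 26 were gained (11.5%, 2.45% to 30.2%) against 23.8%. In shARID1A, 8 of 28 were lost (28.6%, 13.2% to 48.7%) against 28.3%, and 5 of 25 gained (20%, 6.83% to 40.7%) against 26.4%. Knockdown in DMSO lost 5 of 25 (20%) against 36.3% and gained 8 of 28 (28.6%) against 23%. Knockdown in rapamycin lost 5 of 26 (19.2%) against 35.1% and gained 4 of 25 (16%) against 24%. The background lay outside the interval in 1 of these 8 shares, the peaks lost with rapamycin in shControl, which were fewer than over all distal peaks. It did not do so with a reciprocal overlap of 50%, by which 6 of 25 were lost (9.36% to 45.1%) against 37.9%. Both peaks lost by the overlap of 1 bp were at PSAT1. The intervals treat peaks as independent, though many lie near the same gene and the comparisons share lists, so none of them is a test. The members' distal peaks stood nearer the top of the lists than distal peaks at large, with a median percent rank of 36.4% against 59.6% in shControl DMSO and of 42.9% to 44.3% against 60.3% to 61.7% in the other lists; the part of this in their losses was not tested. None of the peaks lost or gained with rapamycin was in the stronger 50% of its list, where 15 or 16 member distal peaks of each list lay. The best of them stood at 62.0%. Over all distal peaks in the stronger 50% such cases were few too: in shControl 610 of 14543 were lost and 373 of 13330 gained, and in shARID1A 404 of 11132 were lost and 268 of 10820 gained.

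The 3 best-ranked distal regions were in all 4 lists. A region in intron 1 of PSPH, 17.4 kb inside the gene (chromosome 7, 56033665 to 56034658), stood at 11.9%, 5.77%, 9.20% and 8.59%. It was nearest the top in shControl rapamycin, where the PSPH promoter was at its lowest. An intergenic region 44.7 kb downstream of the PSPH start, with NIPSNAP2 as nearest gene (56006308 to 56007549), stood at 12.6%, 7.36%, 24.9% and 16.4%, nearer the top in both shControl libraries. An intergenic region 24.1 kb downstream of DDIT4 (chromosome 10, 72297660 to 72298464) stood at 20.0%, 17.1%, 18.4% and 22.9%, a narrow range.

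The number of peaks around PSAT1 was 7, 5, 5 and 3, the widest range of the 10 genes. The regions named in this and the next paragraph were chosen after their values were seen. An intergenic region at -10.1 kb from the TSS (chromosome 9, 78286568 to 78287488) stood at 36.4%, 37.0% and 64.5% and was absent from shARID1A rapamycin. A region at -18.5 kb, in the last exon of CEP78 (78277932 to 78279064), stood at 57.2%, 86.1% and 94.1% and was absent from the same list. A region 110.1 kb downstream (78406748 to 78407694) was in all lists at 17.9%, 22.4%, 44.8% and 39.8%, lower in both shARID1A libraries. A region 72.8 kb downstream stood at 53.8%, 58.1% and 62.0% and was absent from shARID1A DMSO, whose numbers skip 2 in that interval. The same interval holds regions 34.1 and 49.3 kb downstream, which were in shControl DMSO only, at 98.7% and 81.6%. These 3 regions are 3 of the 5 distal peaks counted as lost with knockdown in DMSO, and bear on the 5 peaks of PSAT1 in shARID1A DMSO. At no other region of the 10 genes absent from a list did that list skip numbers.

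At PHGDH, a region at -36.0 kb from the TSS (chromosome 1, 119675518 to 119676540), in an intron of a longer PHGDH transcript by the deposited annotation, was in both rapamycin lists, at 65.3% and 67.1%, and in neither DMSO list. Its peaks overlap only in part, being 119675762 to 119676540 in shControl and 119675518 to 119675957 in shARID1A. The share of all distal regions found in the rapamycin lists alone was not counted. At ATF4, a region at -41.9 kb, in an intron of MGAT3, was absent from shControl DMSO and stood at 63.6%, 58.1% and 49.0% in the other 3. At DDIT4, a region 36.6 kb downstream stood at 68.4% and 76.8% in shControl and was absent from both shARID1A lists. At ASNS, a region 36.6 kb downstream was absent from both shControl lists and stood at 63.5% and 79.3% in shARID1A. A region in intron 6 of SLC7A11 (chromosome 4, 138199069 to 138200391) stood at 48.2%, 63.0%, 35.7% and 55.4%, lower with rapamycin in both genotypes while the promoter of SLC7A11 kept nearly the same place. A region in intron 3 of PSPH, 22.2 kb inside the gene, stood at 25.3%, 40.5%, 54.8% and 72.2%.

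A list of 52 further genes of the pathway was read in the same way: transcription factors, feedback and stress genes, eIF2 and its kinases, tRNA synthetases, transporters, amino acid synthesis and folate enzymes. A TSS was found for 51, and 47 had a promoter peak in every list, against 10062 of all 15846 genes. ATF3, NUPR1, FGF21 and CBS had none in any list. None of the 47 differed by 2 times or more in the same direction in both genotypes. In shControl, 28 ranked lower and 19 higher with rapamycin, with a median log2 ratio of 0.24, 8 of them lower by 2 times or more, against 5.41% of all genes, and 2 higher, against 4.38%. In shARID1A, 30 ranked lower and 17 higher, with a median of 0.13, 5 of them lower by 2 times or more, against 3.45%, and 0 higher, against 2.53%. Of all genes, 51.5% ranked lower in shControl and 52.7% in shARID1A. Both medians lie above the 0.02 and 0.03 of all genes, and in shControl it lies below the 0.81 of the 10 members. By role, the median in shControl was highest at 0.51 for the 6 transporters and 0.45 for the 11 folate and glycine cleavage genes, and lowest at -0.25 for the 4 transcription factors.

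**Figure D4:**
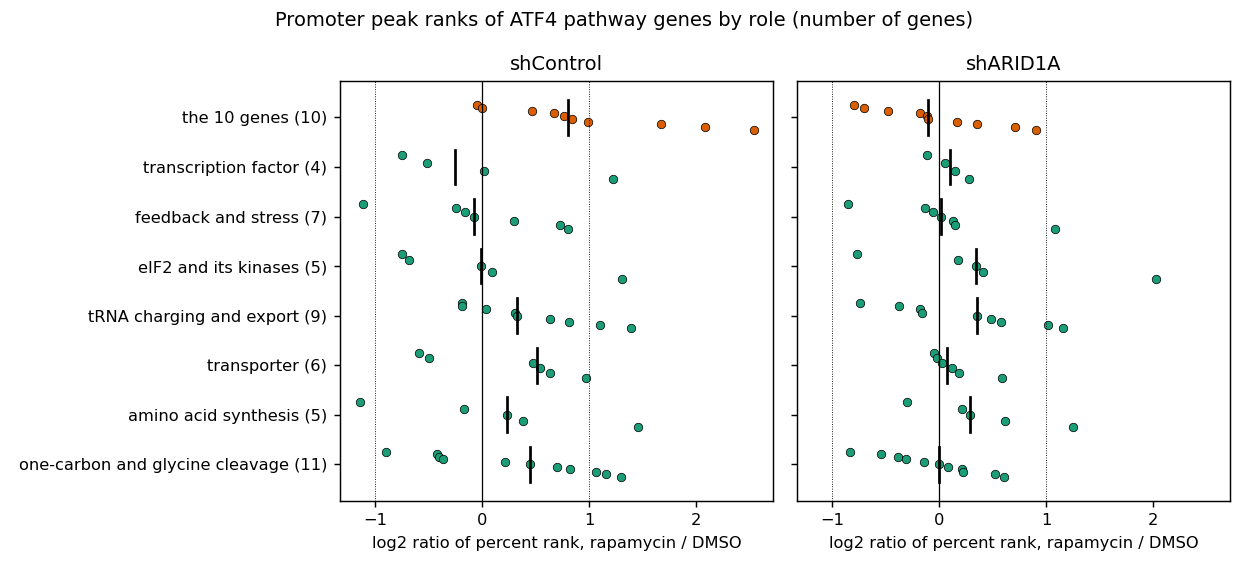
Log2 ratio of the percent rank of the promoter peak, rapamycin against DMSO, for the 10 members and the 47 further pathway genes by role, in shControl and shARID1A, 1 point a gene, with a black bar at each median; above 0 means ranked lower in rapamycin. In shControl the member median is 0.81 and the median of the further genes 0.24, with genes on both sides of 0.

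Values of 5 of these genes follow, chosen after they were seen. DDIT3, which encodes the stress factor CHOP, stood at 3.01%, 7.03%, 8.27% and 8.57%, nearest the top in shControl DMSO. The DDIT3 peak was 1283, 1741, 3218 and 2696 bp wide in the same order. Its centre lay at 189, -43, -788 and -638 bases from the TSS, so these ranks are of unlike intervals. CTH, which makes cysteine from cystathionine, stood at 0.807%, 2.22%, 2.25% and 3.46%, in the same order of libraries as PSAT1. GDF15, a stress cytokine, went the other way in both genotypes, at 11.6%, 5.36%, 12.0% and 6.64%. GPT2, the mitochondrial alanine transaminase, stood at 3.98%, 1.80%, 3.03% and 7.19%, higher with rapamycin in shControl and lower in shARID1A. EIF2AK3, the kinase PERK, stood at 3.83%, 3.80%, 2.19% and 8.91%, with shARID1A rapamycin apart from the other 3.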

How the data were processed

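Each of the 4 ATAC-seq libraries came with 1 peak list, and no list pools libraries, per the labels. The submitters' processing notes name BWA, MACS2 2.0 and the build GRCh38 (hg38). Settings, read depth and the handling of duplicates and of the transposase offset are not stated there. Per the file headers, a list gives each peak's position, score, annotation, TSS distance and nearest gene. The deposited score is the authors' own value, of unstated scale, and served only to rank peaks within a list. Coordinates are the deposited ones.

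Ranks, overlaps and counts were computed in Python 3.11.15 with NumPy 2.4.6, pandas 2.3.3 and SciPy 1.17.1. Figures were made in matplotlib 3.10.9. TSS came from the RefSeq promoter table for 7 of the 10 genes and from the deposited distances for PSPH, SHMT2 and SLC7A11. Of several promoter peaks of a gene in a list the best-ranked was used. Distal peaks were centred over 1 kb from any TSS, and a peak was lost if no peak of the other list overlapped it by 1 bp. A region with a peak within 1 kb of a TSS in any list was classed as a promoter in every list. Peaks that overlapped across lists were joined into regions. Shares have exact (Clopper-Pearson) 95% intervals. The steps were checked on simulated data.

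The 10 genes, the gene lists and the comparisons were chosen with earlier results of these data known. By rule, all 10 genes are named, further pathway genes where a promoter peak was lost or gained with rapamycin or differed by 2 times or more the same way in both genotypes, and distal regions in the stronger 50% of a list that the other treatment lacked, with the 3 best-ranked. Alternatives were other windows, promoter widths, overlaps, rankings and an equal number of peaks.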

Additional observations from a re-analysis of the deposited data

Results flagged for a closer look

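At 4 genes the promoter peak ranked lower with rapamycin in shControl and higher in shARID1A, each with 1 library a group, and the difference was not tested. Of all genes, 51.5% of 10260 ranked lower with rapamycin in shControl, and 27.8% of 10062 ranked lower in both genotypes. Among the 47 further pathway genes, 24 had opposite directions in shControl and shARID1A, counted either way. An opposite direction, counted either way, is thus not particular to these genes. The share of all genes that ranked lower in shControl and higher in shARID1A was not counted. Log2 ratios of the percent rank were 0.99 in shControl and -0.70 in shARID1A for ASNS, a difference of -1.70. For PSPH they were 2.54 and -0.47, a difference of -3.01. For MTHFD2 they were 0.85 and -0.10, a difference of -0.95, and for DDIT4 0.47 and -0.18, a difference of -0.65. With skipped peak numbers counted, the values in shARID1A were -0.51 for ASNS, -0.28 for PSPH, 0.10 for MTHFD2 and 0.02 for DDIT4, so the opposite direction was kept at ASNS and PSPH and not at the other two. All 4 genes had their best rank in shControl DMSO, 1 library that enters each value in shControl.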

How the results depend on the processing

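No paired analysis was possible because each group holds 1 library. No source used here gives the depth, so it is unknown which absent peaks were beyond the reach of a library. Promoter peaks were present at all 10 genes within 2 kb and with the strongest 44760 peaks of each list, and at 9 within 500 bp. The neighbourhoods held 44, 45, 50 and 45 peaks, 24, 23, 24 and 20 with a window of 10 kb, 81, 83, 89 and 80 with 100 kb, and 21, 20, 19 and 16 by the nearest-gene name alone. With a reciprocal overlap of 50%, distal peaks lost and gained with rapamycin in shControl were 6 and 7 in place of 2 and 3, those lost with knockdown in DMSO 8 in place of 5, and those lost and gained with knockdown in rapamycin 9 and 8 in place of 5 and 4. With an equal number of peaks, 1 was lost with rapamycin in shControl and 3 with knockdown in DMSO. Within 10 kb, 1 was gained with rapamycin in shControl, 5 lost and 1 gained in shARID1A, 3 lost and 3 gained with knockdown in DMSO, and 3 lost and 0 gained in rapamycin. A smaller window holds fewer peaks by construction.

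With ranks over the highest peak number, an alternative chosen after seeing the data, members ranked lower were 7 in place of 4 with rapamycin in shARID1A, 1 in place of 0 by 2 times or more, and 4 in place of 2 with knockdown in rapamycin. DDIT4 with knockdown in DMSO missed the ratio of 2, at log2 0.86 by this ranking and 0.89 by rank among promoter peaks. With the promoter peak nearest a TSS in place of the best-ranked, SLC3A2 had a log2 ratio of -0.34 in place of 0.44 for knockdown in DMSO and -0.94 in place of -0.31 in rapamycin. Members ranked lower with rapamycin in shControl were 8 or 9, and those ranked best in shControl DMSO were 7, under each of the 3 other rankings.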
